A study of Homo sapiens with 2 samples.

Results

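The matrix-degrading proteases of the matrix metalloproteinase (MMP) and ADAMTS families and their tissue inhibitors (TIMP) were followed in a pair of human colorectal cancer cell cultures with and without the DNA methyltransferases DNMT1 and DNMT3B. Members were all genes named MMP, ADAMTS or TIMP with a number in the annotation of the array, as far as probe sets belonged to 1 gene. This gave 46 genes of 16920, with 23 MMP, 19 ADAMTS and 4 TIMP genes and 965 probe sets of 261481. HCT116-WT was the line HCT116, a colon cancer cell, and HCT116-DKO was its derivative of genotype HCT116 DNMT1-/- DNMT3b -/-. Both cultures were untreated, grew in McCoy's 5A medium with serum, and gave total RNA for 1 exon array each. According to the study, the disruption of DNMT1 removes only part of its exons, so a shortened transcript can remain in HCT116-DKO. With 1 array per group no value has a replicate error and no test was possible, and the SD given beside a gene is the spread among the differences of its probe sets, all read from those 2 arrays.

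MMPs are zinc endopeptidases that are made as inactive proenzymes, and most are secreted while the membrane-type members stay anchored at the cell surface. ADAMTS proteases share a similar catalytic domain joined to thrombospondin repeats, and they cleave proteoglycans, procollagens and other matrix proteins. TIMPs bind the active site of MMPs and of some related proteases, and in colorectal tumours much of the protease comes from stromal and inflammatory cells rather than from the cancer cells themselves.

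The DNA around the transcription start bears on these samples because both disrupted enzymes methylate CpG dinucleotides, although no methylation value was part of the data described here. RefSeq promoter sequences of assembly GRCh38.p14 were matched for 27 of the 46 members. They gave 28 windows of 300 bases, most of it before the start. The promoters of MMP16, TIMP2 and MMP13 were not analysed here, so of the 3 members that rose only ADAMTS3 enters the values on promoters. Shown are a gene that rose (ADAMTS3) and a gene with a CpG-rich promoter and no measured change (TIMP3). Also shown are the member with the largest measured decrease (MMP14) and a CpG-poor promoter from the MMP cluster of chromosome 11 (MMP7). Each sequence runs 5′ to 3′ with CpG dinucleotides in capitals.
ADAMTS3, chr4:72569172-72569471, minus strand: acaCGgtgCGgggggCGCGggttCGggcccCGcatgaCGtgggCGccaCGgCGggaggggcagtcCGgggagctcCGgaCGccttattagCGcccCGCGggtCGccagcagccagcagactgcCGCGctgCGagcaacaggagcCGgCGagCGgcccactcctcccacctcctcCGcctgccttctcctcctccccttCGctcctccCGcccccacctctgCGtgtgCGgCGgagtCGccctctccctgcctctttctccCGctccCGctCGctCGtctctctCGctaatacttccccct
TIMP3, chr22:32801455-32801754, plus strand: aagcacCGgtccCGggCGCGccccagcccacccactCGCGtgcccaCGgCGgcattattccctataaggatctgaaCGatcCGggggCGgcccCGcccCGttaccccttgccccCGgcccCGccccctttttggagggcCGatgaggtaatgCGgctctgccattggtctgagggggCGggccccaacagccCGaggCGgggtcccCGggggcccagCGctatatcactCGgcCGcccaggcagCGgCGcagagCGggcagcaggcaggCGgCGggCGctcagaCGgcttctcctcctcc
MMP14, chr14:22836335-22836634, plus strand: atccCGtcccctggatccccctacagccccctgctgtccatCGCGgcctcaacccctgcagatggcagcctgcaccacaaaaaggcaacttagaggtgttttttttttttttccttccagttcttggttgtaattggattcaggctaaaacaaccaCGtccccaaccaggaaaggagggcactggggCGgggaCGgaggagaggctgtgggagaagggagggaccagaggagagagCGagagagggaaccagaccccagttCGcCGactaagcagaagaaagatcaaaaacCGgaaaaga
MMP7, chr11:102530698-102530997, minus strand: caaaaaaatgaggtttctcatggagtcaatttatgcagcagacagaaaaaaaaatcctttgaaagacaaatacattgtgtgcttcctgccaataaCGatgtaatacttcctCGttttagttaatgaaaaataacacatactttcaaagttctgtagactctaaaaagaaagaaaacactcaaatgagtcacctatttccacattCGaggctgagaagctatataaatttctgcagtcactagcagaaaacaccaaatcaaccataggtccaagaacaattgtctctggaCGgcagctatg

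These windows held 35 CpG dinucleotides for ADAMTS3, 31 for TIMP3, 10 for MMP14 and 4 for MMP7. The median was 22.5 over the 28 windows of members and 14 over all 35116 promoter windows. The families differed among themselves, with a median of 28 over 13 windows of ADAMTS genes and 7 over 12 windows of MMP genes. The 5 windows from the MMP cluster, which are among these 12 and lower their median, held only 2 to 4 CpG dinucleotides each. They stand for 5 of the 9 genes of that cluster. The other windows of MMP genes ranged from 0 (MMP26) to 39 (MMP15). The letters TGACTCA, bound by AP-1 factors, were found on either strand in 1 of 28 windows of members (3.57%), that of MMP7, against 4.95% of all windows. Members without a window, among them MMP1, MMP3, MMP9 and MMP12, were not searched. The letters TATAAA occurred on either strand in 7 of 28 windows (25%), among them 4 of the 5 from the cluster, against 11.5% of all windows. Matches to these 2 motifs cannot overlap each other, and a match describes the sequence only.

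**Figure D1:**
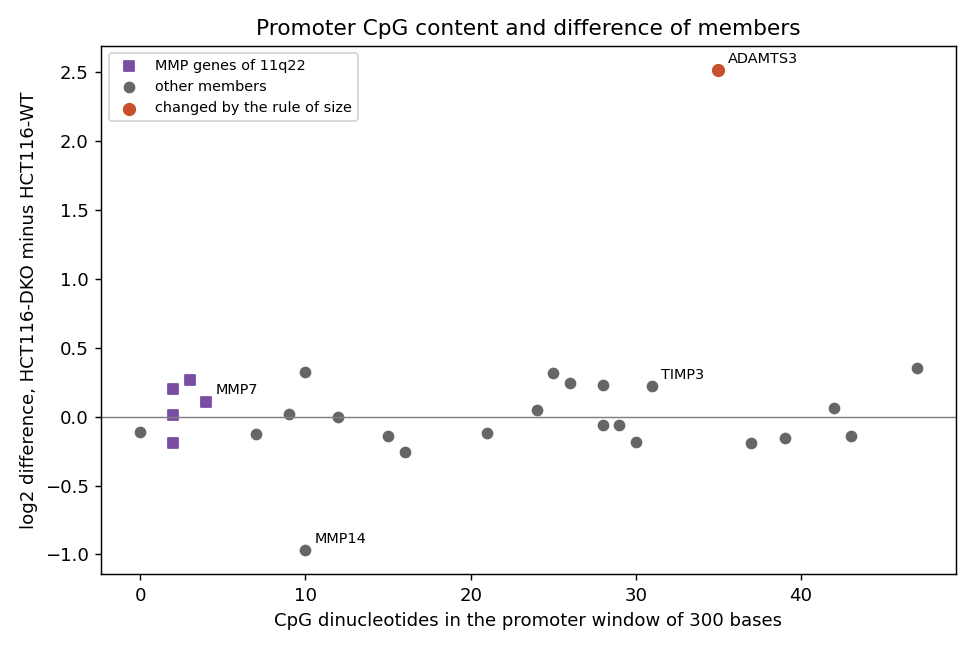
Log2 difference (HCT116-DKO minus HCT116-WT, vertical axis) against the number of CpG dinucleotides in the promoter window (horizontal axis) for the 28 windows of 27 members, with squares for MMP genes of the chromosome 11 cluster. ADAMTS3 with 35 CpG dinucleotides lies apart at 2.52, while TIMP3 with 31 lies at 0.22, MMP7 with 4 lies at 0.11, and MMP16, TIMP2 and MMP13 are not plotted.

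Both targeted genes were lower in the library labelled as the double knockout. The log2 level of DNMT1 went from 10.63 to 9.36, and that of DNMT3B from 8.32 to 6.91. Background was set at the 95th percentile of 286 olfactory receptor genes, giving 7.08 for HCT116-WT and 7.30 for HCT116-DKO. The words rose and fell are used of genes with 3 or more probe sets and a log2 difference of 1 or more. In addition, 75% or more of the probe sets had to differ in that direction, and the higher of both levels had to exceed background. Of the epithelial markers, 9 of 13 lay above background in both arrays, with EPCAM at 11.81 and 11.43 and KRT8 at 13.02 and 13.33. Of the intestinal markers among them, CDX1 (7.81 and 7.72) and CDX2 (8.92 and 8.39) were above background in both arrays, and VIL1, CDH17, LGALS4 and KRT20 in neither.

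Most of these genes were at background in both cultures, and few differed between them. Of the 46 members, 19 (41.3%) lay above background in HCT116-WT, compared with 70.2% of all 16253 genes that had 3 or more probe sets, and 17 (37.0%) in HCT116-DKO, compared with 68.7%. By the rule, 3 members rose (6.52%), namely MMP16, ADAMTS3 and TIMP2, where 2.66% of all genes rose. None fell (0 of 46), where 0.535% of all genes fell, and 43 were not changed. The median log2 difference of the members was 0.004 and that of all genes 0.02, and 23 members had a positive and 23 a negative difference. A difference under 0.5 in size was found for 40 members (87.0%) and for 86.2% of all genes. In RNA of whole cultures, more cells that express a gene and more RNA per cell cannot be told apart.

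**Figure D2:**
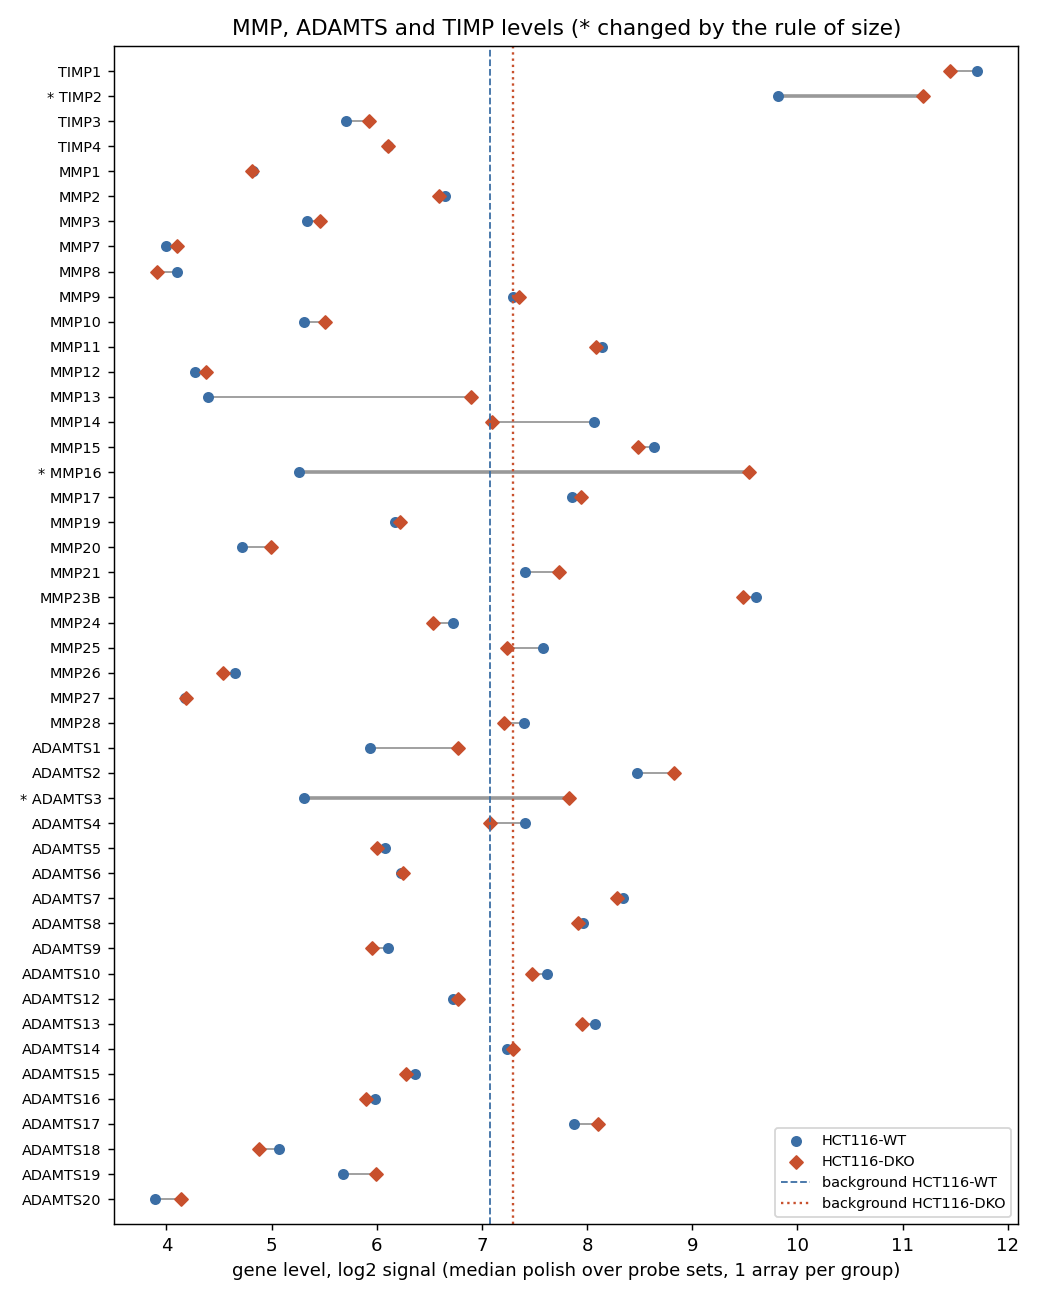
Gene level in log2 signal (horizontal axis) of the 46 members in HCT116-WT (circles) and HCT116-DKO (diamonds), 1 array each, with the background of each array as vertical lines and an asterisk at the 3 genes that rose. Most pairs of symbols nearly coincide, whereas MMP16, ADAMTS3, TIMP2 and MMP13 are clearly higher and MMP14 is lower in HCT116-DKO. Levels of different genes come from different probes and are not to be compared.

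TIMP2 was the inhibitor that rose. It both inhibits MMPs and, bound to MMP14, helps to activate proMMP2. It stood at 9.82 in HCT116-WT against 11.19 in HCT116-DKO, a 2.59-fold increase with a log2 difference of 1.37 (SD over probe sets 0.24). All 9 of its 9 probe sets were higher in HCT116-DKO, by 1.11 to 1.91. The difference was thus of similar size along the gene, and 8 of the 9 probe sets were above background in each array.

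The remaining TIMPs were not changed. TIMP1, which inhibits most secreted MMPs, was at 11.71 and 11.45, a difference of -0.25, with 8 of 9 probe sets lower. TIMP3, which is held in the matrix and whose promoter is methylated in several kinds of tumour, was at 5.70 and 5.93, below background in both arrays. Only 3 of its 11 probe sets were above background in either array, and 9 of 11 differed by less than 0.5. TIMP4 was at 6.11 in both arrays and below background as well.

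MMP16 had the largest difference of all members. It encodes MT3-MMP, a membrane-type MMP that can activate proMMP2 at the cell surface. Its level was 5.26 in HCT116-WT, below background, and 9.54 in HCT116-DKO, a log2 difference of 4.28 (SD over probe sets 1.56). Measured against background, the gene was at least 5.51-fold higher in HCT116-DKO. All 22 of 22 probe sets were higher, 20 of them by at least 2 on the log2 scale. In HCT116-WT 1 probe set exceeded background, and in HCT116-DKO 19 did. The smallest difference, 0.53, was at the probe set in place 9 by order of IDs, which had signals of 3.90 and 4.42.

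The other membrane-type MMPs did not rise with MMP16. MMP14 encodes MT1-MMP, the main activator of proMMP2. It was at 8.06 in HCT116-WT and 7.10 in HCT116-DKO, a log2 difference of -0.97 (SD over probe sets 0.81) and at least 1.70-fold. The signal was lower in HCT116-DKO at 18 of 18 probe sets, with differences from -2.41 to -0.003, and 9 of them by 1 or more. MMP14 therefore missed the demanded size by little, and it fell under 6 of 15 alternative settings, among them quantile normalization and the mean over probe sets. MMP15 (8.64 and 8.48) and MMP17 (7.86 and 7.94), further membrane-type enzymes, had near-equal levels. MMP25 was at 7.58 and 7.24, below background in HCT116-DKO, and MMP24 at 6.72 and 6.53, below background in both. MMP2 itself, the gelatinase that MMP14 and MMP16 activate, was at 6.64 and 6.59 and above background in neither array.

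MMP13 showed a measured increase, but its gene level stayed below background. This collagenase of cartilage and bone was at 4.39 in HCT116-WT and 6.90 in HCT116-DKO, a log2 difference of 2.51 (SD over probe sets 1.63). Of its 17 probe sets 15 were higher in HCT116-DKO, 10 of them by at least 2. Above background were 2 of the 17 in HCT116-WT and 7 in HCT116-DKO. The difference was uneven along the gene. Places 9, 11 and 13 by order of IDs went from 4.04 to 8.05, from 5.48 to 8.21 and from 3.33 to 7.96. Places 1 and 2 went from 4.25 to 3.86 and from 3.80 to 4.06. At the other end, place 17 was at 7.86 and 7.84. Since the gene level of 6.90 did not reach 7.30, MMP13 was not counted as changed, and no fold is given. It was counted as higher with background at the 90th percentile, without the demand on background, with bright probe sets only and with odd-numbered probe sets.

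MMP13 lies in a cluster of 9 MMP genes on chromosome 11, and its 8 neighbours in that cluster showed no such difference. None of the 9 genes was above background in either array. MMP1, the interstitial collagenase, was at 4.83 and 4.82, and MMP8, the collagenase of neutrophils, at 4.10 and 3.91. The stromelysins MMP3 and MMP10 were at 5.33 and 5.46 and at 5.31 and 5.51. MMP7, matrilysin, which many intestinal tumours express, was at 3.99 and 4.10, MMP12, the macrophage elastase, at 4.27 and 4.38, and MMP20, of tooth enamel, at 4.72 and 4.99. MMP27 was at 4.18 and 4.19. Of the genes next to MMP13, MMP12 on one side is given above, and DCUN1D5 on the other was at 10.50 and 10.16. The next gene beyond it, PDGFD, a platelet-derived growth factor, was at 4.72 and 6.38, also below background.

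**Figure D3:**
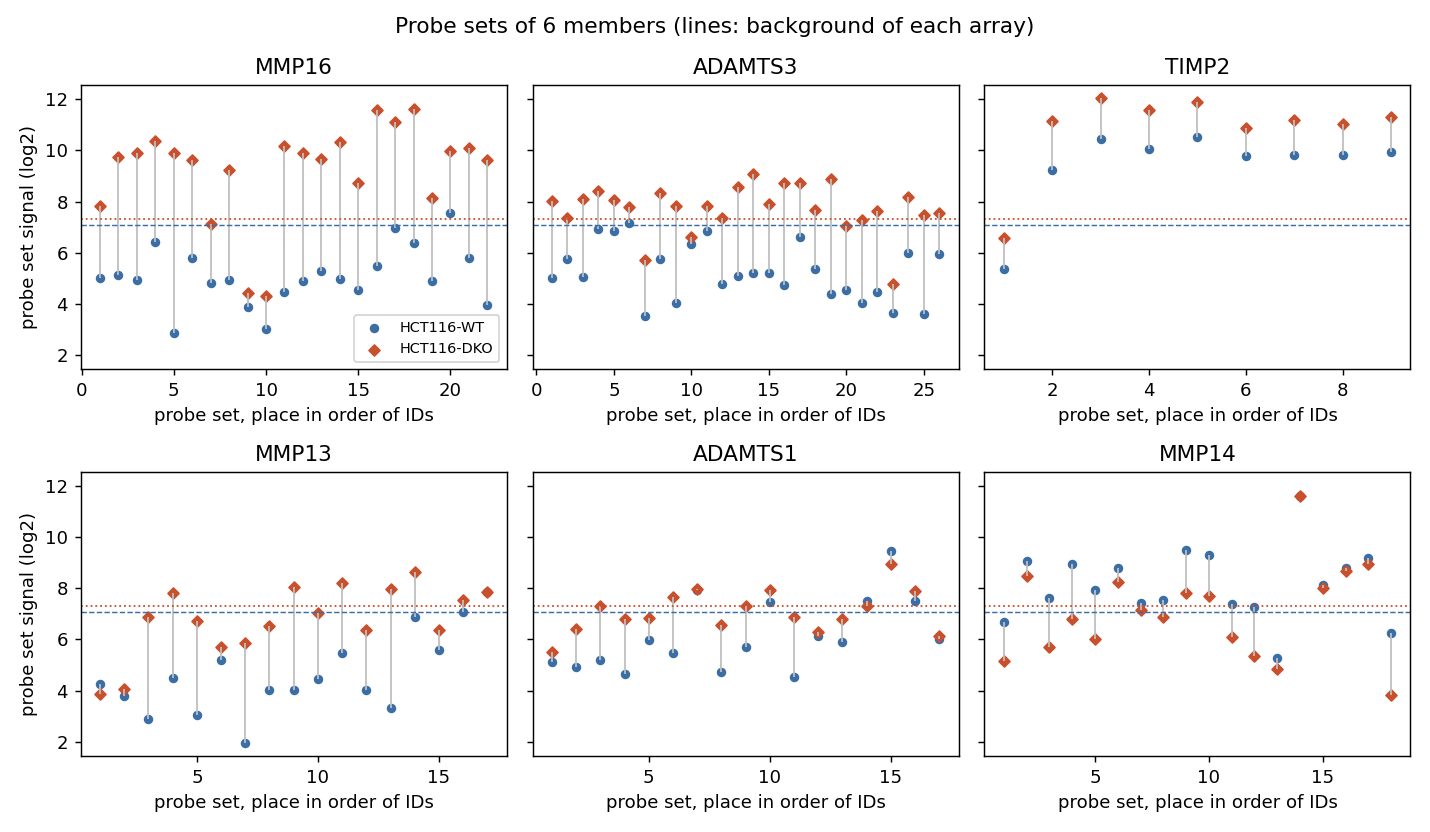
Log2 signal of each probe set (vertical axis) in HCT116-WT (circles) and HCT116-DKO (diamonds) by place in the order of probe set IDs (horizontal axis) for 6 members, with the background of each array as horizontal lines. MMP16, ADAMTS3 and TIMP2 are higher in HCT116-DKO at every probe set, MMP13 and ADAMTS1 at part of theirs, and MMP14 is lower at all 18.

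The MMPs outside the cluster and the membrane-type group were level between the cultures. The gelatinase MMP9 was at 7.30 and 7.36 and thus hardly above background. MMP11, stromelysin-3, was at 8.14 and 8.08, and MMP21, which acts in left-right patterning of the embryo, at 7.41 and 7.73. MMP28, epilysin, was at 7.40 and 7.21, above background in HCT116-WT only. MMP23B, a membrane-bound MMP, was at 9.60 and 9.49, with all 7 probe sets lower in HCT116-DKO and a difference of -0.12. This gene has a near-identical copy, MMP23A, so its values are uncertain. MMP19 and the matrilysin MMP26 were above background in neither array.

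ADAMTS3 was the protease of its family that rose. It removes the N-terminal propeptide of fibrillar procollagen and takes part in processing VEGFC, a growth factor of lymphatic vessels. Its level was 5.30 in HCT116-WT, below background, and 7.82 in HCT116-DKO, a log2 difference of 2.52 (SD over probe sets 1.12) and at least 1.67-fold against background. All 26 of 26 probe sets were higher, 18 of them by at least 2 and the others by 0.28 or more. In HCT116-WT 1 probe set was above background, and in HCT116-DKO 21 were. The level in HCT116-DKO lay only 0.52 above background, so the rise was lost with background at the 99th percentile, and with levels below background set to background it was 0.74.

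The related procollagen peptidases kept their levels more closely. ADAMTS2, the main procollagen I N-propeptidase, was at 8.48 and 8.83, a difference of 0.35 (SD over probe sets 0.69), with 19 of 23 probe sets higher. With the median over probe sets in place of median polish its difference was 1.14, and it counted as higher. ADAMTS14 was at 7.24 and 7.30, at background in HCT116-DKO.

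The proteoglycan-cleaving ADAMTS genes held no member that rose or fell. ADAMTS1, which cleaves versican and aggrecan, came nearest, at 5.94 in HCT116-WT and 6.77 in HCT116-DKO. The log2 difference was 0.83 (SD over probe sets 0.94), and the gene was below background in both arrays. Of its 17 probe sets 15 were higher in HCT116-DKO, 7 of them by 1 or more, while 8 of the 17 differed by less than 0.5 in either direction. The aggrecanase ADAMTS4 was at 7.41 and 7.07, with 14 of 16 probe sets lower and below background in HCT116-DKO, and ADAMTS5, its closest counterpart in cartilage and the neighbour of ADAMTS1 on chromosome 21, was at 6.07 in HCT116-WT with a difference of -0.08. ADAMTS8 was at 7.96 and 7.92. ADAMTS9, ADAMTS15 and ADAMTS20 were above background in neither array, with differences of -0.16, -0.08 and 0.24.

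Further ADAMTS genes differed little in gene level. ADAMTS13, which cuts von Willebrand factor, was at 8.08 and 7.95, ADAMTS7, which cleaves the cartilage protein COMP, at 8.34 and 8.28, ADAMTS10, a protein of fibrillin microfibrils, at 7.62 and 7.48, and ADAMTS17 at 7.88 and 8.11. ADAMTS6, ADAMTS12, ADAMTS16, ADAMTS18 and ADAMTS19 were above background in neither array, and their differences ranged from -0.18 for ADAMTS18 to 0.32 for ADAMTS19. Single probe sets were less even. For ADAMTS19, 27 of 36 were higher in HCT116-DKO, 10 of them by 1 or more (SD over probe sets 0.91). For ADAMTS17, 23 of 29 were higher, 5 of them by 1 or more.

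None of the genes beside those that rose passed the rule. MMP16 is flanked on chromosome 8 by DCAF4L2 (5.84 and 5.95, below background) and RIPK2 (9.65 and 9.32), where the first value is HCT116-WT and the second HCT116-DKO. ADAMTS3 lies on chromosome 4 between NPFFR2 and COX18. NPFFR2 was at 5.72 and 7.28, a log2 difference of 1.56 that ended just below background, and COX18 was at 9.46 and 9.21. TIMP2 lies on chromosome 17 between USP36 (9.30 and 9.26) and LGALS3BP, which was at 11.17 and 12.05, a difference of 0.88.

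Genes that act with these proteases were described from 7 related lists, in which 6 genes rose and 1 fell. No gene in the lists of ADAMTS-like proteins (6 measured) and of ADAM sheddases and relatives (15 measured) was changed, with medians of 0.003 and 0.02. The largest measured differences in them were 1.56 for ADAMTSL3 and 1.02 for ADAM23, both below background in each array. Of the first, ADAMTSL4 was at 7.86 and 7.77 and ADAMTSL5 at 7.92 and 8.31, and of the second, ADAM8 was at 7.92 and 7.83 and ADAM10, a sheddase of Notch and other receptors, at 10.80 and 10.77. Of 16 activators of the proteases 2 rose and 0 fell, with a median of 0.27. These were the serine proteases KLK6, a kallikrein, and PRSS3, a trypsin. KLK6 went from 7.27 to 9.89 (6.17-fold, SD over probe sets 1.72, 12 of 13 probe sets higher). Its level in HCT116-WT was close to the background of 7.08. PRSS3 went from 6.01 to 8.39 (at least 2.48-fold, 5 of 5 probe sets). Near the threshold were the plasminogen activators, PLAU at 10.74 and 9.77 (a difference of -0.97, 16 of 16 probe sets lower) and PLAT at 9.21 and 10.21 (0.998, 19 of 20 higher), neither of which passed it. Trypsin genes are much alike, so PRSS3 probe sets may also bind RNA of its copies.

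Among 11 other inhibitors 2 rose and 0 fell, with a median of 0.12. SERPINE2, which inhibits thrombin and plasminogen activators, rose from 10.28 to 11.64 (2.57-fold, 14 of 14 probe sets). SPOCK1, a proteoglycan of the testican family, rose from 6.16 to 7.59 (at least 1.43-fold). Below background in both arrays were SERPINB2, with a difference of 1.12 (12 of 12 probe sets higher), and TFPI2, with 0.98 (8 of 10 higher). Of 11 hyalectans and other cartilage-type substrates 0 changed, with VCAN, versican, at 11.12 and 11.66 and BCAN, brevican, at 7.42 and 7.23. MATN3, a matrilin, had the largest measured difference there, 1.79, but was below background at 2.61 and 4.41. Of 9 surface partners only NID1 rose, from 6.94 to 8.26 (at least 2.27-fold), and this is a basement membrane protein rather than a protein of the cell surface. ITGB3 missed the demanded size by little, at 6.34 and 7.33, a difference of 0.988 with 18 of 21 probe sets higher. It was above background in HCT116-DKO only. Of 16 AP-1 and ETS factors, which bind the promoters of several MMP genes, ETS1 rose from 6.03 to 7.74 (at least 1.58-fold) and ETV1 fell from 9.55 to 8.48 (2.10-fold), with a median of -0.18. These counts stand beside 2.66% of all genes that rose and 0.535% that fell, and lists of this size do not allow more than a description.

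**Figure D4:**
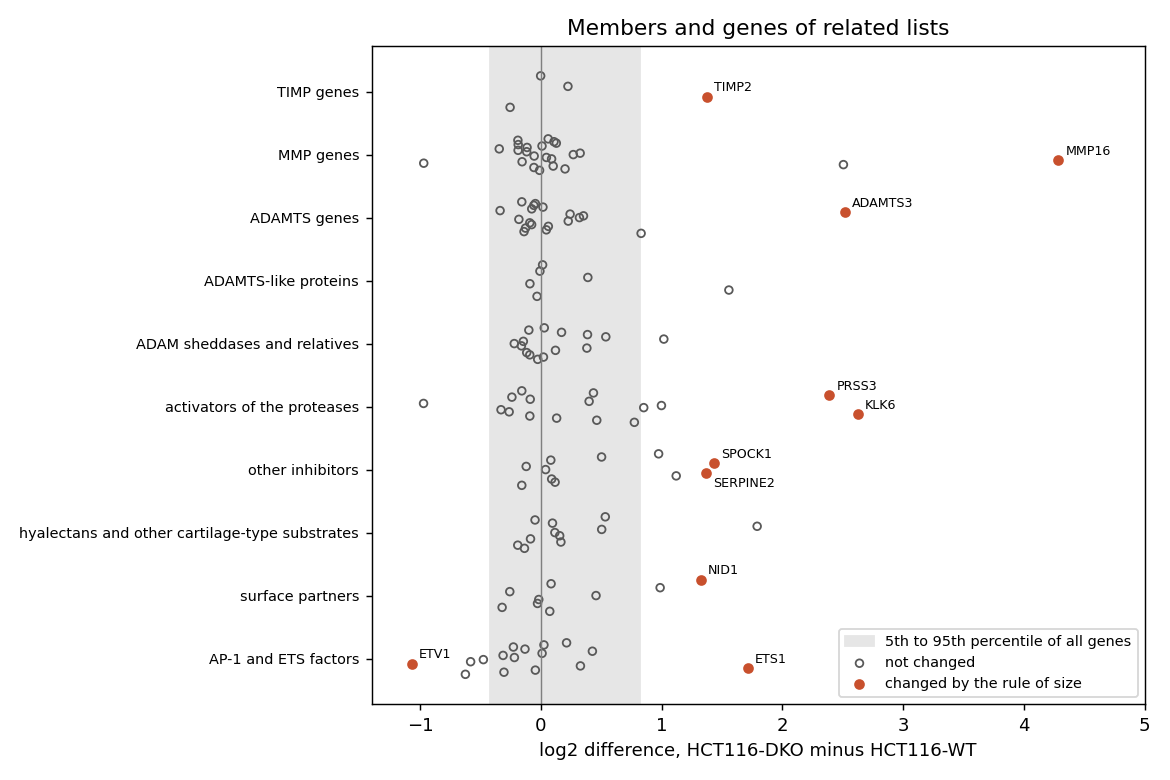
Log2 difference (HCT116-DKO minus HCT116-WT, horizontal axis) of each gene in the 3 families and 7 related lists (rows, with genes spread vertically for legibility), where filled points passed the rule of size and the band spans the 5th to 95th percentile of all genes. The 46 members crowd around 0 except for MMP16 at 4.28, ADAMTS3 at 2.52, MMP13 at 2.51, TIMP2 at 1.37 and ADAMTS1 at 0.83 on the upper side and MMP14 at -0.97 on the lower.

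Stromal and inflammatory cells are common sources of these proteases in tissue, so their markers were read in the same arrays. Of 14 fibroblast and mesenchymal markers 7 were above background in each array, and 2 rose by the rule. THY1 went from 6.23 to 7.64 (at least 1.48-fold, 9 of 11 probe sets higher). FBN1 went from 5.90 to 7.301 (at least 1.17-fold, 64 of 69 higher). It only just passed the HCT116-DKO background of 7.299, so its count as a gene that rose rests on a very small margin. Summed linear signals of a list also take in genes below background, here 5 of 14 in both arrays. For the fibroblast and mesenchymal list they came to 1618 in HCT116-WT against 2056 in HCT116-DKO. Of its collagens, COL1A1 (8.64 and 8.64), COL1A2 (7.55 and 7.38) and COL3A1 (7.31 and 7.21) differed by less than 0.5. COL6A3 was at 7.17 and 8.12, a log2 difference of 0.94 with 46 of 54 probe sets higher, which did not reach the demanded size. DCN, decorin, was at 3.85 and 4.00, below background. Of 12 macrophage and neutrophil markers 0 changed, 2 and 1 were above background, and the summed signal was 1099 and 1072, with PTPRC, the leukocyte antigen CD45, at 3.81 and 3.88. Of 8 endothelial markers 0 changed, 2 were above background in each array, and the summed signal was 923 and 1061. These 2 were ENG, at 8.01 and 8.67 with 18 of 22 probe sets higher, and CLDN5, at 7.55 and 7.39. Both samples were cultures of a cancer cell line and its derivative rather than tissue, so these markers do not measure a share of such cells. Why the measured levels of THY1 and FBN1 were higher in HCT116-DKO was not tested, nor was any link of the markers to MMP16, ADAMTS3 and TIMP2.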

How the data were processed

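Total RNA of HCT116-WT and HCT116-DKO was hybridized to Affymetrix Human Exon arrays, with 1 array per group and 2 arrays in all. The authors deposited log2 signals per exon-level probe set, and the submitters' processing notes name RMA, which corrects background, normalizes and summarizes probes. The study's methods name both the Affymetrix Expression Console and Partek Genomic Suite for exon-level values, but the sources used here do not say which of them made the deposited values or which arrays were normalized together. Each array held 287329 probe sets, of which 261481 had 1 gene in GEO's platform annotation after symbols were updated through the RefSeq table of GRCh38.p14. Precision is limited by the number of arrays.

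A level per gene was obtained by median polish of its probe sets in Python 3.11.15 and pandas 2.3.3, and the code was checked on simulated data. Log2 differences are HCT116-DKO minus HCT116-WT. For a gene below background in the dimmer array, the fold is a lower bound, with the brighter level set against the higher of background and the dim level. Summed signals are sums of the antilogs of gene levels. Neighbours follow the RefSeq order among genes with at least 3 probe sets, and promoter sequences are those of RefSeq. No protein sequence was used here. The members and lists were chosen with earlier results of these data known. Named were all changed members, all above background in at least 1 array, up to 4 changed genes of each related list or up to 2 above background where none changed, DNMT1 and DNMT3B. Other names were chosen after their values were seen.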

Additional observations from a re-analysis of the deposited data

How the results depend on the processing

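The 15 alternatives covered the summary over probe sets, the scaling, background, the thresholds and the choice of probe sets. MMP16 rose under all 15, TIMP2 under all but the log2 threshold of 1.5, and ADAMTS3 under all but background at the 99th percentile and levels set to background. Members that rose thus numbered 2 to 4 against 3. Members that fell numbered 1 (MMP14) in place of 0 with the mean or the median over probe sets, quantile normalization, median centring, a threshold of 0.58 and odd-numbered probe sets. Over all genes, 221 to 921 rose against 433, and 31 to 292 fell against 87. The median difference of the members, 0.004, became -0.11 after quantile normalization and 0.22 with levels below background set to background, where a gene below background in both arrays takes the difference of the backgrounds. That of all genes, 0.02, moved in the same directions, to -0.07 and 0.18. Members above background in HCT116-WT and HCT116-DKO numbered 12 and 5 at the 99th percentile in place of 19 and 17. With only probe sets above background in at least 1 array they numbered 38 and 40 of the 41 members still measured. That filter removes dim signals, so these counts are high by its design. Of 323 values of 36 named genes, 317 moved by less than the SD over probe sets, 6 moved more and no gene counted as changed turned direction. The cause of these shifts was not tested. No paired analysis was possible because each group has 1 array, and for the same reason no replicate could be left out.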

Other observations

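Besides the 7 probe sets of MMP23B, 17 probe sets are shared by MMP23A and MMP23B and entered no gene level. Summarized together, they reached 8.55 in HCT116-WT against 8.39 in HCT116-DKO, a log2 difference of -0.16, with single probe sets between -0.84 and 0.72. Of 15 members that exceeded background in each array and had 5 or more probe sets, 3 of 324 probe sets (0.926%) lay 2 or more log2 units away from the difference of their gene, compared with 644 of 181139 (0.356%) over all such genes. They were place 46 of ADAMTS13 (5.19 and 7.19), place 27 of ADAMTS7 (4.18 and 6.20) and place 12 of ADAMTS10 (5.63 and 2.94), and each had a signal below background in both arrays.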
